A study of Homo sapiens with 64 samples.

Results

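Expression of 8 chemokine genes was followed through a drug treatment of BEAS-2B cells: CXCL1, CXCL2, CXCL3, CXCL5, CXCL6, CXCL8, CCL2 and CCL20. The genes were chosen by name, with no threshold on their values but with earlier results of these data known, and are 8 of the 19775 genes measured. They were read by 13 of 54613 probe sets, and each was tested through its brightest one. BEAS-2B is an immortalised human airway epithelial line, here grown in serum-free keratinocyte medium. The labels name this line for every group, but the markers of the arrays labelled replicate 3 differed widely from the rest, as given below. The cells received vehicle, indacaterol (10 nM), GSK 256066 (10 nM) or both drugs together (10 nM each) for 1, 2, 6 or 18 h, with 4 arrays in each of the 16 groups and no added inflammatory stimulus named in the labels. The comparisons ask what each drug does to these genes over time, and whether both drugs do more than 1. Whether replicates came from separate cultures is not in the labels, so the p-values measure the spread between these samples, and 4 arrays a group limit the precision.

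CXCL1, CXCL2, CXCL3, CXCL5, CXCL6 and CXCL8 are CXC chemokines with the Glu-Leu-Arg motif, which act through the receptors CXCR1 and CXCR2 and draw neutrophils into tissue. CCL2 acts through CCR2 and draws monocytes, and CCL20 acts through CCR6, the receptor that Th17 lymphocytes and immature dendritic cells carry. In the airway, epithelial cells release these proteins within hours of interleukin-1, tumour necrosis factor or interleukin-17, largely through the transcription factor NF-kB. Indacaterol is a long-acting beta2-adrenoceptor agonist, an inhaled bronchodilator that raises the second messenger cyclic AMP (cAMP). GSK 256066 inhibits phosphodiesterase 4 (PDE4), which degrades cAMP, and cAMP acts on genes partly through the factor CREB, which binds the cAMP response element (CRE).

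The arrays labelled replicate 3 stood apart from the rest in every group. The summed signal of the 5 basal and squamous epithelial markers measured (KRT5, KRT14, KRT16, S100A8 and S100A9, of 7 listed) was 404627 to 1530740 on these 16 arrays and 284 to 576 on the other 48. The summed signal of 6 simple epithelial markers was 20232 to 29086 on replicate 3 and 8659 to 19731 on the others. Of these, KRT8 and KRT18 were at 3048 or more on every array, and EPCAM was at 141 or less on the other 48. KRT19 was at 0.00396 to 116 on the other 48 arrays against 2287 to 4407 on replicate 3, KRT7 at 239 to 5370 against 3946 to 10450, and CDH1 at 141 to 439.6 against 548 to 1432. The summed signal of 9 leukocyte markers was 875 to 1177 on the other 48 arrays and 975 to 1398 on replicate 3. Among them PTPRC was at 42.4 or less on every array, LYZ at 198 to 514 and CSF1R at 176 to 316. CD14 was at 24.9 to 171 on the other 48 and 141 to 289 on replicate 3. That of 7 fibroblast markers was 8678 to 13567 on the others and 7161 to 10357 on replicate 3, made up largely by COL1A1 (5431 to 10841) and PDGFRB (798 to 2539), with COL1A2, COL3A1, LUM, DCN and PDGFRA at 38.9 to 243. The replicate 3 array was the highest of its group in 15 of 16 groups for CXCL3 and for CXCL6, and in 12 for CXCL2. It was the highest in 11 for CXCL1 and for CXCL5, 7 for CCL20, 6 for CXCL8 and 0 for CCL2. It was the lowest in 11 groups for CCL2 and in 0 to 4 for each other gene. Several changes of the chemokines are therefore also given without it. The vehicle time course, the departure from additivity, the group order, the likeness and the CXCL6 changes are given only with it. The part of the marker difference in these results was not tested. Whether the replicate 3 arrays hold the same cells as the rest was not tested either.

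Indacaterol raised CXCL2 and CCL20 within 1 h, kept them high at 2 h, and left neither called at 6 or 18 h. Of the 8 chemokines 2 rose at 1 h and the same 2 at 2 h, where 0.187% and 0.986% of all genes rose. Because the 8 were named with earlier results of these data known, such shares are descriptions. CCL2 had higher values at 2 and 6 h and CXCL3 at 1 h, by less, and neither passed the test over all genes. CXCL1, CXCL5, CXCL6 and CXCL8 did not pass it at any time. A rise here is an adjusted p under 0.05 in limma, with Benjamini-Hochberg adjustment over all genes, and each log2 change is of log2(signal + 16), which shrinks the changes of dim genes. Counted instead as 4 treated values all above the 4 vehicle values, CXCL2, CXCL3 and CCL20 were higher at 1 h and CXCL2, CCL2 and CCL20 at 2 h, 3 of 8 each time, against 2.36% and 2.84% of all genes. No member was lower in this sense at 1 or 2 h. The share of all genes that were lower is not given, so this is a description only. The median log2 change of the 8 was 0.51 at 1 h and 0.36 at 2 h, and that of all genes -0.02 and 0.00.

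**Figure D1:**
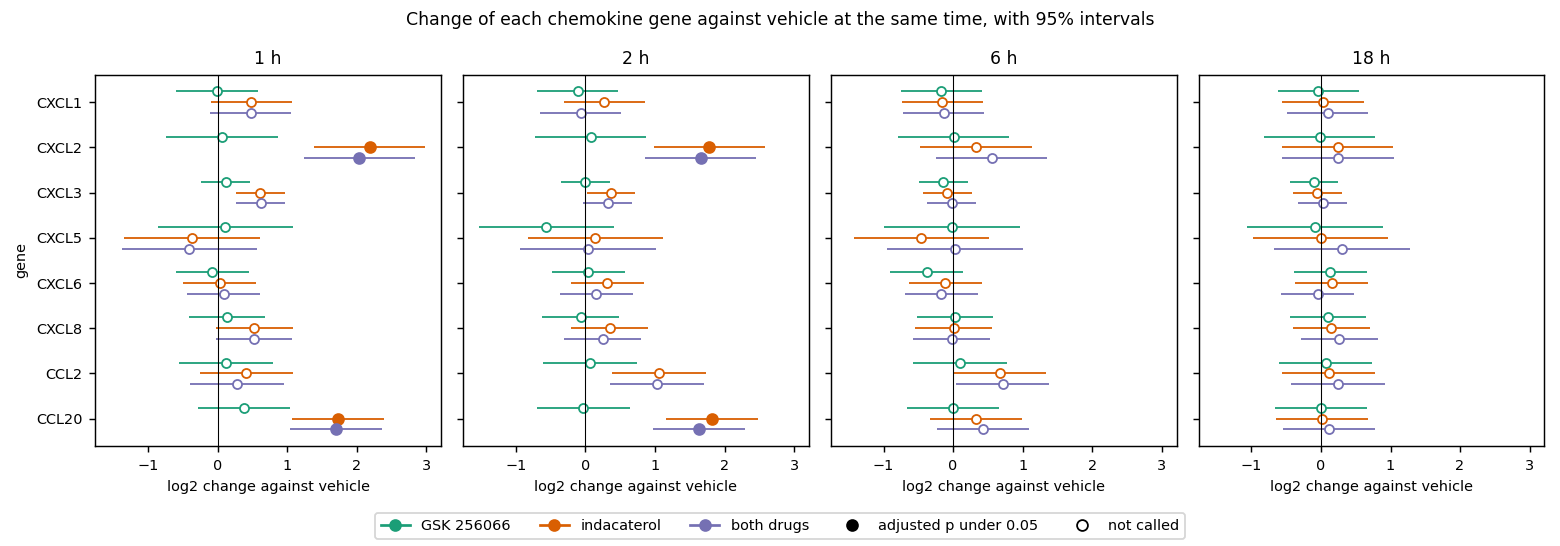
Log2 change of each chemokine gene against vehicle at the same time (horizontal axis, log2(signal + 16) scale), with 95% intervals, for GSK 256066, indacaterol and both drugs at 1, 2, 6 and 18 h; filled points passed an adjusted p under 0.05 over all genes. The filled points are CXCL2 and CCL20 at 1 and 2 h with indacaterol and with both drugs, from 1.63 to 2.18.

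CXCL2, a neutrophil attractant also known as MIP-2 alpha, gave the greatest change of the 8 at 1 h with the constant of 16 (with a constant of 1, CCL20 changed by 2.63 and CXCL2 by 2.32). At 1 h its signal in replicates 1 to 4 was 127, 97.2, 243 and 86.7 with vehicle and 889, 529, 1012 and 346 with indacaterol. All 4 indacaterol arrays were above all 4 vehicle arrays, and replicate 3 was the highest in both groups. The log2 change was 2.18 ± 0.40 (SE, n = 4 against 4), or 4.55-fold on that scale, with an adjusted p of 0.00124 in limma. At 2 h the signal was 78.6, 65.9, 119.6 and 64.7 with vehicle and 483, 244, 569 and 139.8 with indacaterol. The groups again did not overlap, and every array of both was lower than the 1 h array of its replicate number. The change was 1.78 ± 0.40, with an adjusted p of 0.00629 in limma. By 6 h CXCL2 stood at 177, 111, 129 and 78.2 with indacaterol against 106, 107, 100.4 and 60.8 with vehicle, ranges that overlapped, with a change of 0.33 and an adjusted p of 1.00. At 18 h the indacaterol arrays were at 75.3 to 121 and the vehicle arrays at 45.0 to 122.

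Within each replicate number, CXCL2 was higher by 1.82 to 2.66 at 1 h and by 0.95 to 2.40 at 2 h on the log2 scale. Replicates 1, 2 and 4 gave smaller differences at 2 h than at 1 h, and replicate 3 a slightly larger one (1.99 and 2.11). Without replicate 3 the changes were 2.25 and 1.67, with adjusted p of 0.00122 and 0.0127 in limma. The call at 1 h was lost without replicate 1 (adjusted p = 0.214) or without replicate 2 (0.123), where the change was 2.03 and 2.16. At 2 h it was lost without replicate 1 (0.317), without replicate 2 (0.117), without the indacaterol array of replicate 1 (0.0615) and without that of replicate 3 (0.0754). Over all alternatives the adjusted p of CXCL2 ran from 8.76e-10 to 0.214 at 1 h and from 4.57e-08 to 0.317 at 2 h.

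The CXCL2 call rests on 1 of its 3 probe sets. That brightest one, 209774_x_at, can hold probes that match other transcripts, as its suffix marks, and CXCL1 and CXCL3 are close relatives of CXCL2. The other probe sets, 230101_at and 1569203_at, changed by 0.06 ± 0.15 and 0.16 ± 0.11 at 1 h with indacaterol, where 209774_x_at changed by 2.18 ± 0.40. On 230101_at the 1 h signals were 90.4, 105, 105 and 85.4 with vehicle and 94.0, 98.2, 138 and 81.3 with indacaterol, 2 overlapping groups. Averaged over its 3 probe sets, CXCL2 changed by 0.80 at 1 h (adjusted p = 0.0234) and by 0.62 at 2 h (0.0791), so the 2 h call was lost. Which part of the transcript each probe set reads was not analysed here.

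CXCL3, a close relative of CXCL2 and likewise a ligand of CXCR2, had higher values too. At 1 h its signal in replicates 1 to 4 was 24.7, 23.3, 39.6 and 25.1 with vehicle and 55.9, 45.9, 62.3 and 41.5 with indacaterol, with no overlap. The change was 0.61 ± 0.17, with an adjusted p of 0.167 in limma. Within the replicate numbers CXCL3 was higher in 4 of 4, by 0.49 to 0.82. With the replicate number as a block the adjusted p was 6.12e-05, in a fit that called 0.764% of all genes higher, and without replicate 3 it was 0.00507 with a change of 0.65. Over all alternatives it ran from 6.12e-05 to 0.791. At 2 h the signals were 30.0, 23.3, 40.7 and 19.9 with vehicle and 40.6, 35.1, 53.8 and 34.9 with indacaterol, which overlapped, and the change was 0.37 ± 0.17 (adjusted p = 0.586 in limma). CXCL3 was dim, with a signal under the lower quartile of its own array (34.12 to 42.31) on 42 of 64 arrays.

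CXCL1, also called GRO alpha, was read by 1 probe set. At 1 h its signal was 118, 124, 295 and 120.2 with vehicle and 163, 218, 407 and 156 with indacaterol. It was higher in each of the 4 replicate numbers, by 0.33 to 0.74 on the log2 scale, but the groups overlapped because the vehicle array of replicate 3 was above 3 of the 4 indacaterol arrays. The change was 0.48 ± 0.29 with a 95% interval of -0.10 to 1.07 and an adjusted p of 0.844 in limma. At 2 h the change was 0.27 (-0.31 to 0.86), and at 6 and 18 h it was -0.15 and 0.03. Without replicate 3 CXCL1 changed by 0.50 at 1 h (adjusted p = 0.547 in limma; 0.241 to 1.00 over all alternatives).

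The brightest probe sets of the related chromosome 4 genes CXCL2, CXCL3 and CXCL1 changed by different amounts, a difference that was not tested. The 250 bases before annotated transcript starts are shown for these genes, which share much promoter sequence, and for CCL20, the other gene that rose. They come from RefSeq (GRCh38.p14), which held 7 of the 8 genes in the table used here, are read 5′ to 3′ on the gene's strand, and lie at chr4:74099196-74099445 on the minus strand, chr4:74038690-74038939 on the minus strand, chr4:73869143-73869392 on the plus strand and chr2:227813592-227813841 on the plus strand. Capitals mark exact matches to the CRE core (TGACG, or CGTCA on the other strand), the kB element bound by NF-kB (GGAATTTCC or GGAAATTCC) and, on the gene's strand, the TATA box (TATAAA).
CXCL2: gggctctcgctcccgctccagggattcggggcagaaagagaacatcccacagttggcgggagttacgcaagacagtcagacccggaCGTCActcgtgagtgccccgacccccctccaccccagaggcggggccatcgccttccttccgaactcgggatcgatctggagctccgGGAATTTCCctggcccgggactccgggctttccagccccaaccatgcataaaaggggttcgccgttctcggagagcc
CXCL3: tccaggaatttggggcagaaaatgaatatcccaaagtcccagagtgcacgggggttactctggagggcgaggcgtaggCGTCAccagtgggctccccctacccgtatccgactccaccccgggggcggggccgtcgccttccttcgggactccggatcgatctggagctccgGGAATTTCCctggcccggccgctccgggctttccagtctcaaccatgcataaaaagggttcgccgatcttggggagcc
CXCL1: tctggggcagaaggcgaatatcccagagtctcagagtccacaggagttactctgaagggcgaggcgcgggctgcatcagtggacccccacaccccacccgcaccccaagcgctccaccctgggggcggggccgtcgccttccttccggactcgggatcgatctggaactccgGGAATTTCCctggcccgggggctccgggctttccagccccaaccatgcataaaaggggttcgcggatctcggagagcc
CCL20: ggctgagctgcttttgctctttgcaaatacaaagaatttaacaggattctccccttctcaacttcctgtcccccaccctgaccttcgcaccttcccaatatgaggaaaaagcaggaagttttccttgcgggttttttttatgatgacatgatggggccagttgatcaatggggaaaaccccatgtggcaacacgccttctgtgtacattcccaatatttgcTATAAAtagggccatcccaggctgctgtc

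Over windows that also hold the 50 bases after the start, the CXCL1 and CXCL3 promoters were 84.3% identical over the aligned columns, CXCL2 and CXCL3 78.3%, CXCL1 and CXCL2 75.8%, and CXCL5 and CXCL6 85.0%. These 5 and CXCL8 carried the kB element, which 0.461% of 35116 promoters of the same length held, at -78 in CXCL1 and CXCL3, -77 in CXCL2, -90 in CXCL5, -89 in CXCL6 and -91 in CXCL8 (first base, counted back from the start). The element was first searched with 1 more G at its 5′ end, and the shorter form was taken up after that, both with the data already seen. The longer form was matched in 5 of these 6 and in 0.145% of all promoters. It was not matched in CXCL8, whose match depends on the shorter form. CXCL2 and CXCL3 had the CRE core at -164 and -172 and CXCL8 at -179, each as CGTCA, and it was matched in neither CXCL1 nor CCL20. This short motif occurred in 24.6% of all promoters. The full CRE, TGACGTCA, which holds the core on both strands, was in none of the 7 and in 1.85% of all. CXCL8 and CCL20 had the TATA box at -31 and -29, as 7.33% of all promoters did. A match describes the letters in the window and is no measurement of binding. Only these exact letters were searched. A missing match, as of the kB element in CCL20, does not show that the promoter holds no site for NF-kB.

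**Figure D2:**
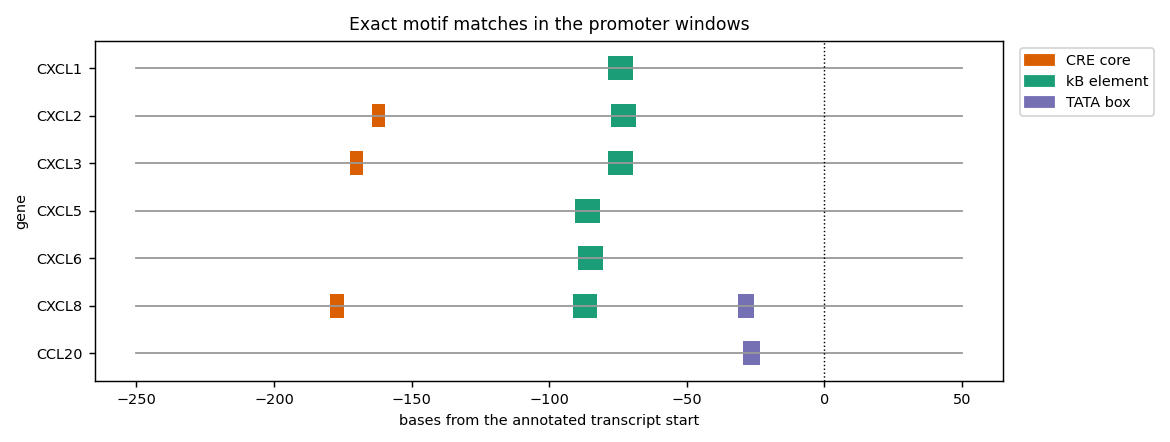
Positions of exact motif matches in the promoter windows of 7 chemokine genes, in bases from the annotated transcript start (horizontal axis, 250 before to 50 after), coloured by motif. The kB element sits between -91 and -69 in the 6 CXC genes, and the CRE core in CXCL2, CXCL3 and CXCL8.

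CCL20, the ligand of CCR6, rose at 1 h and at 2 h by similar amounts. At 1 h its signal in replicates 1 to 4 was 4.87, 22.8, 28.1 and 6.72 with vehicle and 98.0, 47.2, 188 and 50.1 with indacaterol. The groups did not overlap, and replicate 3 was again the highest in both. The log2 change was 1.73 ± 0.33, or 3.31-fold on the log2(signal + 16) scale, with an adjusted p of 0.00267 in limma. At 2 h the signal was 12.1, 7.78, 16.8 and 19.1 with vehicle and 80.3, 76.9, 167 and 57.9 with indacaterol, and every indacaterol array was above every vehicle array. The change was 1.82 ± 0.33 with an adjusted p of 0.00034 in limma. At 6 h the indacaterol arrays were at 8.27 to 20.7, overlapping the vehicle arrays at 0.0103 to 14.9. At 18 h they were at 0.0636 to 20.7 against 10.1 to 14.1.

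Within each replicate number CCL20 was higher by 0.70 to 2.45 at 1 h and by 1.07 to 2.48 at 2 h. Without replicate 3 the changes were 1.57 and 1.61, with adjusted p of 0.000793 and 0.000127 in limma. CCL20 was dim, under the lower quartile of its array on 48 of 64 arrays, so the constant of 16 sets much of its fold. With a constant of 1 the change at 1 h was 2.63 and lost its call (adjusted p = 0.0983), as it did without replicate 1 (0.374) and without the indacaterol array of replicate 3 (0.0888). Over all alternatives the adjusted p of CCL20 ran from 6.53e-05 to 0.374 at 1 h, and from 1.2e-05 to 0.0403 at 2 h, where all 18 kept the call.

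CCL2, the monocyte attractant MCP-1, had its highest values at 2 h. At 1 h its signal was 619, 593, 533 and 524 with vehicle and 963, 1021, 479.7 and 706 with indacaterol, higher in replicates 1, 2 and 4 and not in replicate 3. At 2 h it was 555, 596, 334 and 442 with vehicle and 1066, 1318, 880.3 and 801 with indacaterol, and the groups did not overlap. At 6 h it was 724, 573, 289 and 466 with vehicle and 1143, 1144, 371 and 769.9 with indacaterol. Replicate 3 was the lowest of every vehicle and indacaterol group at 2, 6 and 18 h except indacaterol at 2 h and vehicle at 18 h, where replicate 4 was, and at 6 h the groups overlapped although CCL2 was higher in 4 of 4 replicate numbers.

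The log2 changes of CCL2 with indacaterol were 0.42 ± 0.34 at 1 h, 1.06 ± 0.34 at 2 h, 0.67 ± 0.34 at 6 h and 0.11 ± 0.34 at 18 h. The adjusted p in limma was 0.975, 0.148, 1.00 and 1.00. No member passed the test at 6 h, where 0.273% of all genes did, or at 18 h, where 0.00506% did, and no member had an unadjusted p under 0.05 at either time. With the replicate number as a block CCL2 passed at 6 h, with an adjusted p of 0.0174 in a fit that called 1.65% of all genes higher. In the same blocked fit the simple epithelial keratin KRT7 passed as well (0.89 at 6 h, adjusted p = 1.45e-05; SE 1.30 without the block), and its part in the CCL2 result was not tested. Without replicate 3 CCL2 changed by 0.96 at 2 h and 0.78 at 6 h, with adjusted p of 0.0487 and 0.361 in limma. Over all alternatives it ran from 3.15e-06 to 0.563 at 2 h and 0.00027 to 1.00 at 6 h.

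**Figure D3:**
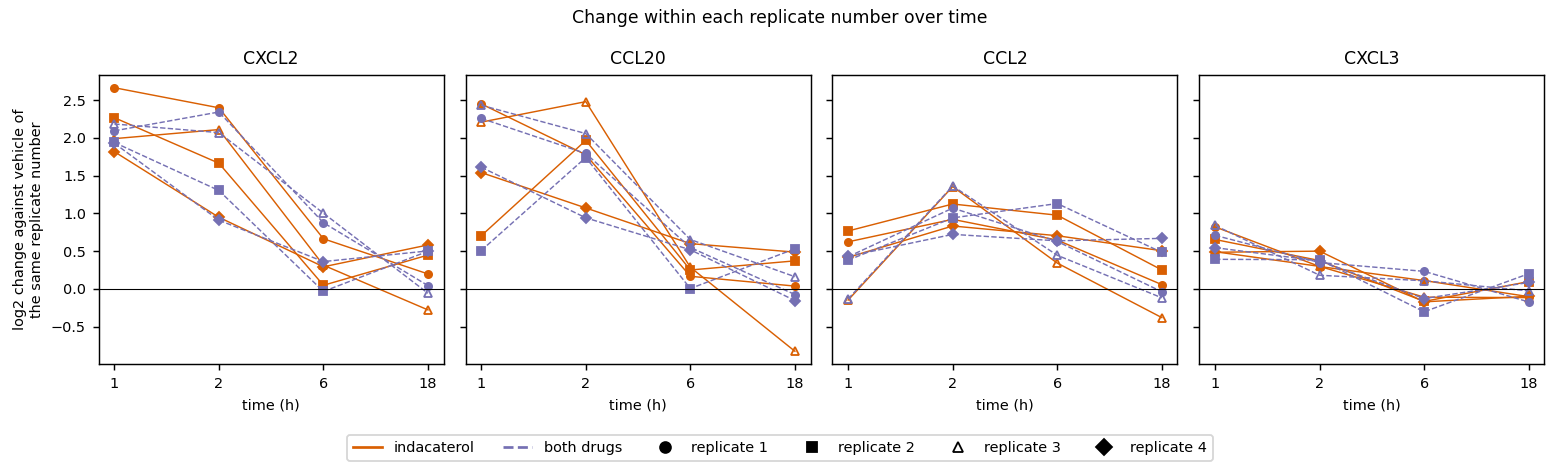
Log2 change against the vehicle array of the same replicate number (vertical axis) at 1, 2, 6 and 18 h for CXCL2, CCL20, CCL2 and CXCL3, with indacaterol (solid) and both drugs (dashed); each line is 1 replicate number. CXCL2 and CCL20 lie above 0 in all 4 replicate numbers at 1 and 2 h, with indacaterol on both sides of 0 at 18 h, and CCL2 lies above 0 in all 4 at 2 and 6 h.

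CXCL8, or interleukin-8, is the best known neutrophil attractant of the airway and did not pass the test. Its brightest probe set, 202859_x_at, has the same suffix as that of CXCL2 and can hold probes that match other transcripts. At 1 h it read 77.0, 79.0, 131 and 72.2 with vehicle and 148, 126, 242 and 66.5 with indacaterol. It was higher in replicates 1, 2 and 3 and not in replicate 4, and the groups overlapped. The change was 0.53 ± 0.27 with a 95% interval of -0.02 to 1.08 and an adjusted p of 0.744 in limma. The 2 h change was 0.35 (-0.20 to 0.90). Without replicate 3 CXCL8 changed by 0.43 at 1 h (adjusted p = 1.00 in limma; 0.327 to 1.00 over all alternatives). The second probe set, 211506_s_at, changed by 0.27 ± 0.18 at 1 h and -0.23 ± 0.18 at 2 h with indacaterol, and was under its array's lower quartile on 53 of 64 arrays.

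CXCL5 (ENA-78) and CXCL6 (GCP-2) are ligands of CXCR2, and CXCL6 also of CXCR1. CXCL6 was at 10.5 to 63.0 over all 64 arrays and under the lower quartile on 48 of them, with changes of 0.03 at 1 h and 0.32 at 2 h with indacaterol. Of the probe sets of CXCL5, 207852_at and 215101_s_at were under the lower quartile on 64 of 64 arrays. The brightest, 214974_x_at, has the same suffix as that of CXCL2 and can hold probes that match other transcripts. It split the replicate 3 arrays. There 9 of the 16 arrays were at 541 to 778 and the other 7 at 136 to 204, whereas the highest signal in replicates 1, 2 and 4 was 216. The 9 were vehicle at 1, 2 and 6 h, GSK 256066 at 1 and 6 h, indacaterol at 2 h, and both drugs at 2, 6 and 18 h. Neither of the dim probe sets followed this split. The log2 changes of CXCL5 with indacaterol were -0.37 ± 0.48 at 1 h and -0.46 ± 0.48 at 6 h, and without replicate 3 they were 0.12 and 0.03. What sets the 9 arrays apart was not tested.

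**Figure D4:**
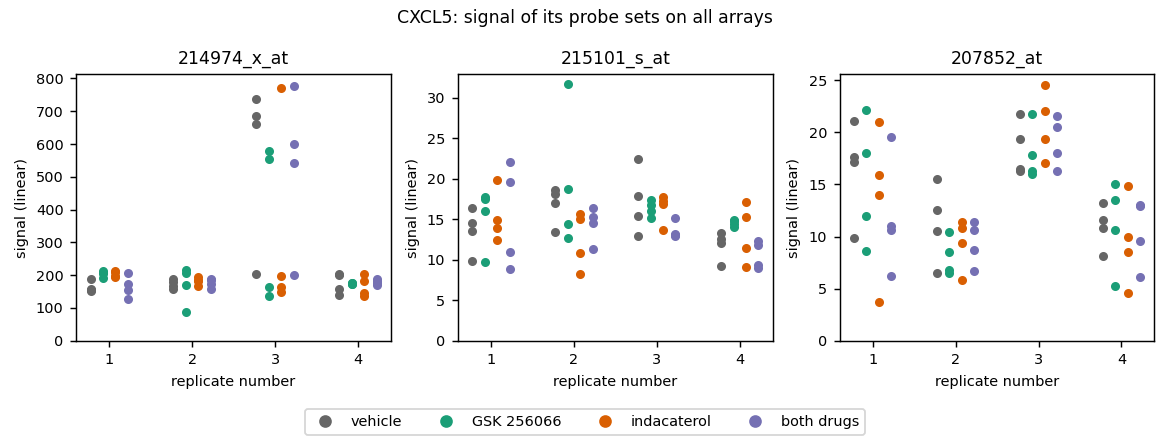
Linear signal of the 3 CXCL5 probe sets (1 panel each, with its own vertical scale from 0) on all 64 arrays, by replicate number and coloured by treatment. In replicate 3 the arrays of 214974_x_at fall into 9 at 541 to 778 and 7 at 136 to 204, which 215101_s_at and 207852_at do not show.

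GSK 256066 alone moved none of the 8 genes past the test at any time. Of all genes, 0.00506% passed at 1 h and 0% at 2, 6 and 18 h, and no member had an unadjusted p under 0.05 at any of the times. CXCL2 read 142, 99.7, 286 and 76.4 at 1 h, a change of 0.06 from vehicle with a 95% interval of -0.74 to 0.86. At 2 h it read 101, 48.1, 153 and 66.7, a change of 0.08 (-0.72 to 0.88). CCL20 at 1 h was 18.0, 16.4, 50.3 and 15.7, a change of 0.38 (-0.28 to 1.04), the greatest rise of any member with GSK 256066. CCL2 at 2 h was 631, 492, 373 and 507, a change of 0.06 (-0.61 to 0.74). The remaining changes of all members ran down to -0.56 for CXCL5 at 2 h, which was -0.09 without replicate 3. Without that replicate no member was called at any time.

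Both drugs together raised the same 2 genes at the same times as indacaterol. CXCL2 and CCL20 rose at 1 and at 2 h, 2 of 8 members each time, where 0.207% and 0.86% of all genes rose. CXCL2 read 593, 418, 1159.6 and 375 at 1 h, a change from vehicle of 2.04 ± 0.40 (adjusted p = 0.00357 in limma). By 2 h it was at 464, 186, 553 and 136, a change of 1.66 ± 0.40 (0.0158). CCL20 read 83.9, 39.2, 222 and 53.4 at 1 h, a change of 1.70 ± 0.33 (adjusted p = 0.00314 in limma). By 2 h it was at 81.4, 63.4, 121 and 51.5, a change of 1.63 ± 0.33 (0.00185). These groups did not overlap vehicle, and at 2 h neither did CCL2, which made 2 of 8 members at 1 h and 3 of 8 at 2 h, against 2.25% and 2.05% of all genes.

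Without replicate 3 the rises with both drugs were 1.99 and 1.52 for CXCL2 (adjusted p = 0.00723 and 0.0363 in limma) and 1.46 and 1.49 for CCL20 (0.00258 and 0.000452). Without replicate 1 all 4 calls were lost, with adjusted p of 0.197 and 0.472 for CXCL2 and 0.449 and 0.133 for CCL20. Those of CXCL2 were also lost without replicate 2 (0.159 and 0.157), and at 1 h those of both genes without the treated array of replicate 3 (0.0681 for CXCL2 and 0.0832 for CCL20). The CXCL2 call at 2 h was further lost without vehicle array 1, 2 or 4 (0.0509, 0.0676 and 0.07), without treated array 1 or 3 (0.127 and 0.19) and with the mean of its probe sets (0.169). With a constant of 1 the CCL20 calls were lost (0.0848 and 0.0678). Over all alternatives the adjusted p ran from 6.16e-09 to 0.197 and 2.73e-07 to 0.472 for CXCL2 at 1 and 2 h, and from 0.000197 to 0.449 and 4.75e-05 to 0.133 for CCL20.

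CCL2 with both drugs read 1183, 1158, 885 and 740.2 at 2 h, a change of 1.02 ± 0.34 with an adjusted p of 0.185 in limma, and 1129, 1275, 399.7 and 734 at 6 h, a change of 0.71 ± 0.34 (0.597). With the replicate number as a block it passed at both times (adjusted p = 2.57e-05 and 0.00531), in fits that called 2.25% and 2.55% of all genes higher. KRT7 passed in these fits too, with 0.55 at 2 h (adjusted p = 0.01) and 0.97 at 6 h (1.73e-06), and at 18 h with 0.76 (0.00188), as did the basal keratin KRT16 at 6 h with 0.45 (0.024). The part of either in the CCL2 result was not tested. Without replicate 3 and without the block CCL2 had an adjusted p of 0.0881 and 0.215, and over all alternatives 9.44e-06 to 0.605 and 0.000144 to 1.00. CXCL3 at 1 h read 50.5, 35.6, 83.6 and 44.0, a change of 0.62 ± 0.17 (0.127; 0.0414 without replicate 3; 5.4e-05 to 0.816 over all alternatives). CXCL1 and CXCL8 changed by 0.48 ± 0.29 and 0.52 ± 0.27 at 1 h. No member was called at 6 h, where 0.759% of all genes were and 1 member (CCL2) had an unadjusted p under 0.05, or at 18 h, where 0.0354% were and no member had one.

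Adding GSK 256066 to indacaterol made no detectable difference to any of the 8 genes. None passed the test of both drugs against indacaterol at any time, as 0% of all genes did, and none had an unadjusted p under 0.05. At 1 h the difference, both drugs minus indacaterol, was -0.15 for CXCL2, with a 95% interval of -0.95 to 0.65, and -0.02 (-0.68 to 0.64) for CCL20. At 2 h it was -0.12 (-0.92 to 0.68) for CXCL2, -0.19 (-0.85 to 0.47) for CCL20 and -0.03 (-0.71 to 0.64) for CCL2. CXCL2 was then lower in 4 of 4 replicate numbers (-0.36 to -0.04), and so was CXCL1 (-0.58 to -0.17), with a difference of -0.34 (-0.92 to 0.24) and an adjusted p of 1.00 in limma. At 6 h CXCL2 differed by 0.22 (-0.58 to 1.02), above 0 in 3 of 4 replicate numbers, and CCL2 by 0.04 (-0.63 to 0.72). These intervals bound the contribution of the inhibitor and do not show that it was nil. Without replicate 3 no member was called either, and the 1 h difference was -0.26 for CXCL2 and -0.11 for CCL20.

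Against GSK 256066 alone, both drugs raised CXCL2 at 1 h (1.97 ± 0.40, adjusted p = 0.0152 in limma), 1 of 8 members where 0.137% of all genes rose. At 2 h they raised CXCL2 (1.58 ± 0.40, 0.0297) and CCL20 (1.66 ± 0.33, 0.00189), 2 of 8 where 0.85% did. CCL20 at 1 h was at 1.32 ± 0.33 and did not pass (0.127; 0.00918 to 1.00 over all alternatives). It did pass without GSK 256066 array 3 (0.0301) and without the array of both drugs in replicate 2 (0.0244). CXCL3 at 1 h was at 0.51 (1.00; 0.00229 to 1.00). CCL2 changed by 0.96 ± 0.34 at 2 h and 0.61 ± 0.34 at 6 h, with adjusted p of 0.252 and 0.968, and of 8.64e-05 and 0.0329 with the block, in fits that called 3.12% and 1.91% of all genes higher (2.08e-05 to 0.691 and 0.00497 to 1.00 over all alternatives). No member was called at 6 or 18 h, where 0.359% and 0% of all genes were, and none had an unadjusted p under 0.05 there. Without replicate 3 CXCL2 changed by 1.98 at 1 h (0.0117) and 1.52 at 2 h (0.0354), and CCL20 by 1.58 at 2 h (0.000268). The CXCL2 calls at 1 and 2 h were both lost without replicate 1 (0.275 and 0.314), without replicate 2 (0.353 and 0.325), without GSK 256066 array 2 (0.106 and 0.204) or 4 (0.211 and 0.0947), without the array of both drugs in replicate 3 (0.262 and 0.273) and with the mean of its probe sets (0.0794 and 0.216). At 2 h that of CXCL2 was also lost without the array of both drugs in replicate 1 (0.188). The CCL20 call at 2 h was lost without replicate 1 (0.106), without replicate 2 (0.0732) and with a constant of 1 (0.0597). Over all alternatives the adjusted p ran from 2.43e-08 to 0.353 and 9.79e-07 to 0.325 for CXCL2 at 1 and 2 h, and from 2.15e-05 to 0.106 for CCL20 at 2 h.

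The departure from additivity, the effect of both drugs over GSK 256066 minus that of indacaterol over vehicle, was called for no member at any time, as for 0% of all genes, and no member had an unadjusted p under 0.05. For CXCL2 it was -0.21 at 1 h with a 95% interval of -1.34 to 0.92, and for CCL20 -0.40 (-1.34 to 0.53). These comparisons share their control arrays, so their agreement is no separate evidence.

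In vehicle alone no member passed the test between 1 h and 2, 6 or 18 h, where 0.192%, 1.21% and 1.58% of all genes did, and none had an unadjusted p under 0.05. CXCL2 was -0.58, -0.42 and -0.59 from its 1 h level at 2, 6 and 18 h, each with an SE of 0.40. CCL2 was -0.26, -0.21 and -0.43. Whether the indacaterol effect itself differed between the 4 times was tested with a moderated F-test, which no member passed and 0.268% of all genes did. CCL20 came nearest, with an adjusted p of 0.0596 and an unadjusted p of 0.000174, ahead of CXCL2 (0.198 and 0.00109) and CXCL3 (0.803 and 0.0164). With the replicate number as a block CXCL2 (4.54e-06), CXCL3 (0.00108) and CCL20 (0.00298) passed, as 1.99% of all genes did. Same-numbered arrays of indacaterol and vehicle all deviated together at 1, 6 and 18 h but not at 2 h, which does not show that the numbers pair them.

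**Figure D5:**
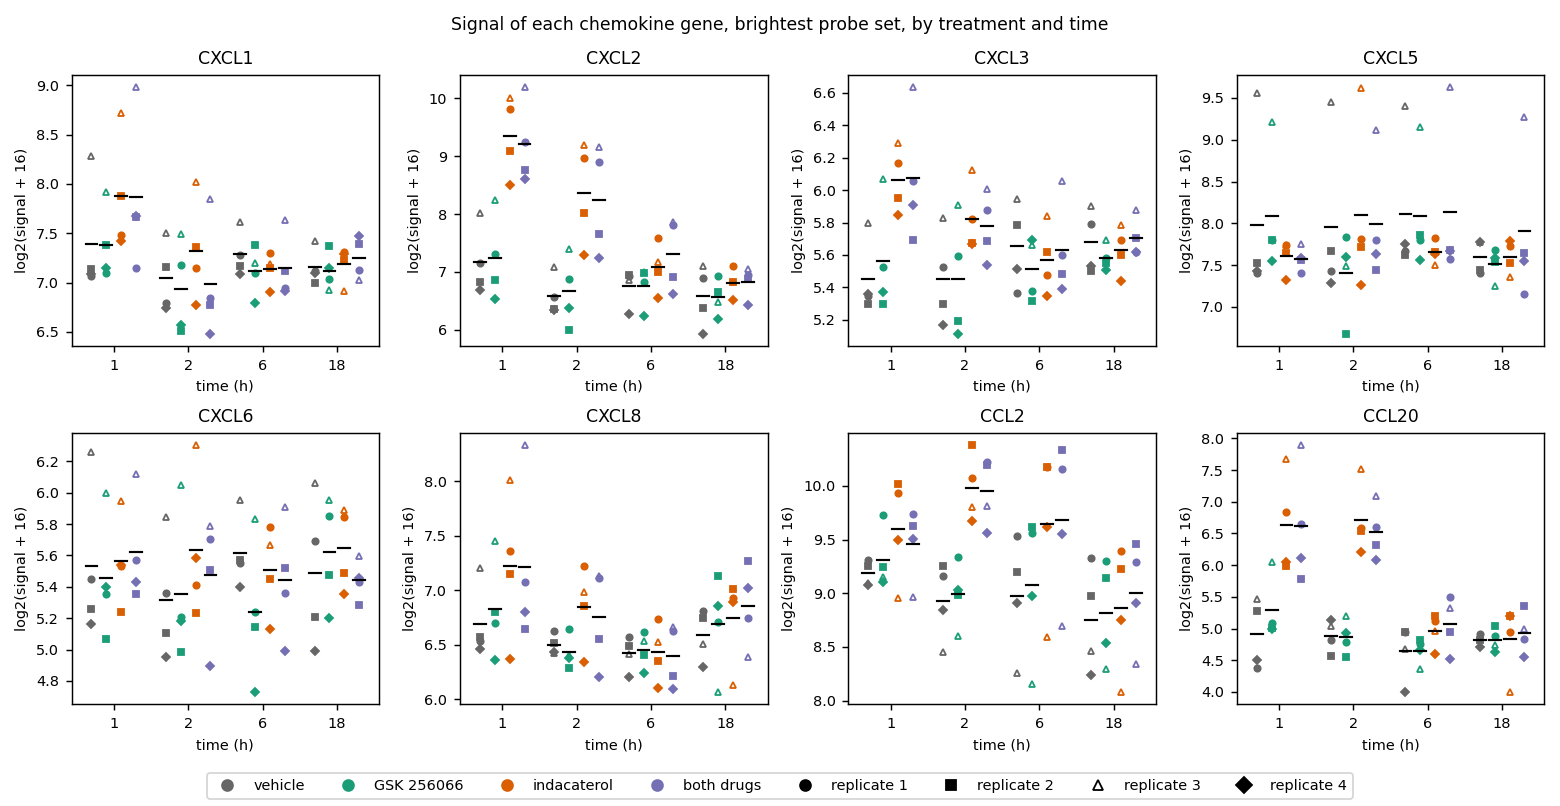
Signal of the brightest probe set of each of the 8 genes on all 64 arrays (vertical axis, log2(signal + 16), a separate range in each panel), by time and coloured by treatment; open triangles are replicate 3 and bars are group means. CXCL2 and CCL20 stand high with indacaterol and both drugs at 1 and 2 h, and CCL2 at 2 and 6 h. Replicate 3 is mostly the highest array for CXCL1, CXCL2, CXCL3, CXCL5 and CXCL6, and often the lowest for CCL2.

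Ordered by mean signal over the 16 groups, CXCL2 was highest with indacaterol at 1 h (694 ± 309, SD, n = 4), then both drugs at 1 h (636 ± 361), indacaterol at 2 h (359 ± 201) and both drugs at 2 h (335 ± 205). The other 12 groups ran from 80.0 to 153, and every group of CXCL2 overlapped the next in the order. CCL20 had the same 4 groups on top, at 79.2 to 99.6, of which both drugs at 2 h (lowest array 51.5) did not overlap the next group, GSK 256066 at 1 h (25.1 ± 16.8, highest array 50.3). All other neighbours overlapped, down to GSK 256066 at 6 h (9.22 ± 3.36). CCL2 was highest with indacaterol at 2 h (1016 ± 230), followed by both drugs at 2 h (992 ± 215), both drugs at 6 h (884 ± 396) and indacaterol at 6 h (857 ± 369). It was lowest with vehicle at 18 h (435 ± 155), and neighbouring groups overlapped throughout. A change in the share of cells that express a gene and a change in its transcript per cell cannot be told apart in such bulk samples.

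The genes whose 16 group means followed a member most closely were picked by Pearson's r among 12929 to 12930 genes of at least moderate signal. For CXCL2 they were SNAI2 (r = 0.989), a transcriptional repressor, SGK1 (0.984), a kinase, and IL6 (0.980), the cytokine interleukin-6. For CCL20 they were ZNF331 (0.992), TRIB1 (0.980) and TGIF1 (0.972), and for CCL2 TM4SF1 (0.978), HRK (0.968) and SLC22A5 (0.968). CXCL3 was nearest to SNAI2 (0.917), PRDM1 (0.904) and RGS2 (0.903). CXCL8 was nearest to KLF6 (0.932), SLC25A25 (0.929) and FOS (0.915), and CXCL1 to SPRY2 (0.842), FOS (0.837) and PTGER4 (0.837). For CXCL6 the nearest was HS3ST4 (0.862) and for CXCL5 HNRNPAB (0.814). The CXCL5 means carry the split of the replicate 3 arrays given above, and HNRNPAB spanned 0.13 log2 against 0.74 for CXCL5. All points share the same arrays, and these values are descriptions.

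None of the 6 receptors listed (CXCR1, CXCR2, CCR2, CCR6, ACKR1 and ACKR2) passed the test against vehicle with any treatment at any time, and none had an unadjusted p under 0.05. In fits blocked on the replicate number the atypical receptor ACKR1, at 159 to 418 on the replicate 3 arrays and 22.5 to 249.8 on the others, passed with indacaterol at 6 h (0.80, adjusted p = 0.000114) and with both drugs at 6 h (0.87, 1.86e-05) and 18 h (0.83, 0.00088), where 1.65%, 2.55% and 0.253% of all genes were called higher. Of 23 other chemokines 21 were measured and none passed against vehicle. At an unadjusted p under 0.05, 6 of the 21 were higher with GSK 256066 at 1 h (CCL8, CCL11, CXCL9, CXCL17, CX3CL1 and PPBP), where 5.84% of all genes were, and 4 with indacaterol at 1 h (CCL17, CXCL12, CXCL14 and CXCL17), where 4.66% were. The other comparisons with vehicle had 0 to 4 at that p in both directions together. Their shares of all genes are not given here, so these counts are descriptions. Of 4 neutrophil partner cytokines 3 were measured, and IL6 rose with indacaterol by 3.32 ± 0.47 at 1 h (adjusted p = 1.31e-05 in limma) and 2.77 ± 0.47 at 2 h (0.00011). With both drugs IL6 rose by 3.26 and 2.75, and CSF3 and LIF did not pass.

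Of 14 NF-kB subunits, inhibitors and targets 12 were measured. REL, an NF-kB subunit, rose at 2 h by 0.85 ± 0.14 with indacaterol (adjusted p = 4.81e-05 in limma) and by 0.87 with both drugs. NFKBIZ, an inhibitor-like protein that acts as a coactivator of some NF-kB targets, rose by 0.59 ± 0.15 (0.027) and 0.56 (0.0469). The other 10, among them NFKBIA and TNFAIP3, did not pass against vehicle at 2 h, and none of the 12 did at 1 h. Of all genes, 0.187% rose at 1 h and 0.986% at 2 h with indacaterol, and 0.207% and 0.86% with both drugs. Against GSK 256066, both drugs raised NFKBIZ at 1 h by 0.69 (0.0299), where 0.137% of all genes rose. In blocked fits of comparisons whose same-numbered arrays deviated together, NFKBIZ passed with indacaterol at 1 h (0.52, adjusted p = 0.0291), where 0.764% of all genes were called higher. With both drugs at 2 h so did TNFAIP3 (0.57, 0.0264) and, lower, NFKBIE (-0.28, 0.0442), where 2.25% of all genes were called higher and 1.2% lower. Of 8 factors of chemokine mRNA decay and stability 7 were measured. DUSP1, a phosphatase that limits the p38 kinase, rose with indacaterol by 0.72 ± 0.12 at 1 h (adjusted p = 0.000251) and 0.62 ± 0.12 at 2 h (0.000898), and by 0.75, 0.65 and 0.57 with both drugs at 1, 2 and 6 h. ZFP36L1, which speeds the decay of AU-rich mRNAs, rose at 1 h by 0.77 with indacaterol and 0.77 with both drugs (0.039 and 0.0333). ELAVL1, which stabilises such mRNAs, fell by 0.21 with both drugs at 6 h (0.00189), where 0.759% of all genes were called in either direction. With the block DUSP1 (0.35, 0.0377) and ELAVL1 (-0.14, 0.0384) passed with indacaterol at 6 h too, where 1.65% of all genes were called higher and 0.657% lower. ZFP36L1 passed with both drugs at 6 h (0.59, 0.0345), where 2.55% were called higher. Of 16 cytokine inputs and receptor adaptors TNFRSF1A, a receptor of tumour necrosis factor, alone was called in the unblocked fit, with both drugs at 6 h (0.40 ± 0.10, 0.0275). With the block it passed with indacaterol at 6 h as well (0.31, 0.0135). IL1RAP, a subunit of the interleukin-1 receptor, and the adaptor TRAF6 passed with both drugs at 2 h (0.60, 0.00353, and 0.38, 0.000715). The kinase IRAK1 was lower with both drugs at 6 h (-0.22, 0.00762), where 2.72% of all genes were called lower.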

How the data were processed

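Signals of 54675 probe sets on 64 arrays were analysed, of which 62 were control probe sets. The authors deposited them as linear intensity values, and the submitters' processing notes name PLIER and Transcriptome Analysis Console 4. The PLIER settings are not given in the sources used here, and scanner files were not used here. Arrays came out of this processing on a near common scale, with medians of 101.2 to 127.4, so they were not scaled again. No 2 arrays held identical values.

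Probe sets with a single gene symbol (41091; 1801 had several and 11721 none) were used, 41037 of them with a symbol updated by gene ID, and each gene was read by its brightest probe set. Values were taken as log2(value + 16) and fitted with limma 3.58.1 in R 4.3.3 with 1 mean for each of the 16 groups (48 residual degrees of freedom, median prior 2.92), without a replicate block. P-values were adjusted by Benjamini-Hochberg over 19775 genes. The members and gene lists were chosen with earlier results of these data known. Named genes were the 8 members, list members that passed the test and, for likeness, the 3 genes with the highest r.

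Groups shared replicate numbers, whose meaning the labels do not give. Same-numbered arrays deviated together, with every correlation over 0.1, in 19 of 27 comparisons, and for these, blocked values are printed where they change a call of a member, or of a listed gene against vehicle. The 8 others were indacaterol and GSK 256066 at 2 h, both drugs against each control at 1 h, additivity at 1 and 2 h, and vehicle between 1 and 2 h. The alternatives were constants of 1 and 64, a filter at a mean log2 of 6, quantile normalization, the block, the mean of a gene's probe sets, each replicate or array left out, and the block without replicate 3. Promoters came from RefSeq (GRCh38.p14) and were aligned with Biopython 1.88.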

Additional observations from a re-analysis of the deposited data

Results flagged for a closer look

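Of 128 groups of 4 arrays (8 genes in 16 groups), 10 held an array that lay far from the other 3 by Dixon's criterion, which chance meets in about 0.05 of groups. For CXCL5 these were replicate 3 with vehicle at 1 h (737) and 6 h (661), with GSK 256066 at 1 h (579.6) and with the combination at 6 h (778). For vehicle at 1 h replicate 3 was also far above the others for CXCL1 (295), CXCL3 (39.6) and CXCL8 (131). Replicate 3 was high for CCL20 with GSK 256066 at 1 h (50.3) and low for CXCL8 with indacaterol at 18 h (54.3). Replicate 4 was low for CXCL2 with vehicle at 6 h (60.8).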

How the results depend on the processing

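Of 4279 changes of the members recomputed under the alternatives, 42 lost a call, 29 gained one, and 0 of those called in either fit changed sign. Of values called in neither, 517 changed sign, all with a size of at most 0.50 in the reported fit; the 30 of them over 0.3 were all of CXCL5. Leaving out a replicate or a single array gave 0 to 3 calls for indacaterol at 1 h, 1 to 3 at 2 h, 0 to 3 for both drugs against vehicle at 1 h, 0 to 2 at 2 h, 0 to 2 against GSK 256066 at each of these times, and 0 to 1 for the F-test over times. With a constant of 1 the 2 calls became 1 for indacaterol at 1 h, both drugs at 1 and 2 h, and both drugs against GSK 256066 at 2 h. With the filter, which leaves CCL20 untested, they became 1 for indacaterol and both drugs at 1 and 2 h and for both drugs against GSK 256066 at 2 h. With the mean of a gene's probe sets they became 1 for indacaterol at 2 h, both drugs at 2 h and both drugs against GSK 256066 at 2 h, and 0 for that comparison at 1 h.

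With the replicate block 3 members were called for indacaterol at 1 h, 4 at 2 h and 1 at 6 h. For both drugs 3, 3 and 1 were called at 1, 2 and 6 h, and against GSK 256066 3, 3 and 1. With the block on replicates 1, 2 and 4 only these counts became 4, 4 and 1, then 3, 3 and 1, then 3, 4 and 1. Of all genes, the block on all replicates called 0.764% higher for indacaterol at 1 h, against 0.187% without it, and 1.65% at 6 h. It called 2.25% and 2.55% higher for both drugs at 2 and 6 h, and 3.12% and 1.91% against GSK 256066. For the other blocked counts no share of all genes is given, and they are descriptions. The F-test called 3 members with either block (CXCL2, CXCL3 and CCL20) and 1 (CCL20) after quantile normalization. In the 8 comparisons whose same-numbered arrays did not all deviate together, the numbers may not pair the arrays, and in the 19 others pairing was not shown either. The cause of these changes was not tested, apart from the filter's. The dim signals of CXCL3, CXCL6 and CCL20 limit the precision of their changes.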
